A study of Mus musculus with 7 samples.

Results

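Described here are 10 genes: the orphan nuclear receptors *Nr4a1*, *Nr4a2* and *Nr4a3*, the zinc finger transcription factors *Egr1*, *Egr2* and *Egr3*, and the immediate-early response genes *Ier2*, *Ier3*, *Ier5* and *Phlda1*. They were taken by name from 25033 gene symbols in the count files, and all 10 were among the 11265 genes with enough reads to be tested. They were listed with their CPM (counts per 1000000 reads on genes, scaled between libraries) in the 2 genotypes already in view. The genotype difference of these 10 genes is therefore a description and carries no test.

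The data came from lineage-depleted (lin-) bone marrow cells of 3 wild type (*Hrp2*+/+) and 4 knockout (*Hrp2*-/-) mice, 1 library per mouse, named here WT1 to WT3 and KO1 to KO4 after their labelled replicate numbers. All mice were C57BL/6N, and the knockouts carried the KOMP tm1b allele of *Hdgfrp2* (now *Hdgfl2*), the gene of the chromatin reader HRP-2, in every tissue. The marrow was taken from femur and tibia of mice aged 6 to 8 weeks and red cells were lysed, and the labels name no treatment. As the allele is systemic, a difference in marrow cells cannot be assigned to loss of HRP-2 in those cells, and only mice that lived to this age were sampled. The question was which genes differ in hematopoietic progenitors without HRP-2. *Hdgfl2* itself lay at 50.02, 43.7 and 44.6 CPM in the wild type mice and at 2.53, 0.62, 1.49 and 0.50 CPM in the knockouts, on 2 to 13 reads, so that every library was as labelled for the targeted gene (log2 fold change -5.09, edgeR quasi-likelihood test with Benjamini-Hochberg adjustment, adjusted p = 1.38e-07).

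Reads on genes numbered 3525665 to 4490287 in the wild type and 4355974 to 5605158 in the knockout libraries, so that 3 reads, the limit that a count of 0 allows, are worth 0.535 to 0.851 CPM of the unscaled totals by counting error alone. Lineage-depleted marrow is a mixture, and in bulk RNA fewer cells of a type and less RNA per cell cannot be told apart. The progenitor markers *Kit* (112 ± 11.1 CPM in wild type, SD, n = 3, and 95.4 ± 8.67 in knockout, n = 4) and *Cd34* (226 ± 45.03 and 222 ± 42.6 CPM) were present in every library. Among the knockouts, 2 libraries stood apart. KO3 held 0.56 CPM of *Xist* against 229 to 303 CPM in the other 6 mice, and 104 CPM of the Y-linked *Ddx3y*. KO4 held 518 CPM of the collagen gene *Col1a1* against 3.99 to 34.9 CPM elsewhere. Each gene's difference is also given without KO3 and KO4 where the gene was still tested.

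Immediate-early genes are switched on within minutes of a signal, from transcription factors such as SRF and CREB that are already in the cell, and need no new protein. Their mRNAs decay quickly, so that levels follow recent signals closely, and in blood cells they are known to respond to cytokines, stress and the handling of tissue. NR4A receptors act without a known ligand and bind DNA as monomers or dimers, and *Nr4a1* and *Nr4a3* are known as restraints on myeloid leukemia. EGR factors bind GC-rich sites downstream of MAP kinase signaling, and *Egr1* is known to keep hematopoietic stem cells quiescent.

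The promoters are shown because they carry the elements by which such genes are known to be induced. Of the 10 genes, 6 had an entry among the RefSeq promoters of GRCm38.p6 (*Nr4a1*, *Nr4a2*, *Nr4a3*, *Egr2*, *Ier3* and *Ier5*). The 250 bases before each start were searched on both strands for the CRE core TGACG, the full CRE TGACGTCA, the SRF element known as the CArG box, the EGR sites GCGTGGGCG and GCGGGGGCG, the NR4A site AAAGGTCA, TATAAA and the AP-1 site TGANTCA. The full CRE contains the core, and no full CRE was found. Capitals mark CRE cores (TGACG, or CGTCA on the other strand), CArG boxes and EGR sites. The *Nr4a1* window, chr15:101266596-101266845 on the plus strand, lies inside the gene and outside its exons, before an internal start, and holds 4 CRE cores and 1 EGR site:
Nr4a1: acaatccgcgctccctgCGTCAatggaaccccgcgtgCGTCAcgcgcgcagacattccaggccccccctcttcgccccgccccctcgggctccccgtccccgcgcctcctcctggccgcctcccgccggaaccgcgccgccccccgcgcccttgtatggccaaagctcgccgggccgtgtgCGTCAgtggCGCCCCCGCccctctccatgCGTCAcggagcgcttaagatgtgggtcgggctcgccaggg
The *Nr4a2* window, chr2:57124004-57124253 on the minus strand, lies directly before the gene and also holds 4 CRE cores:
Nr4a2: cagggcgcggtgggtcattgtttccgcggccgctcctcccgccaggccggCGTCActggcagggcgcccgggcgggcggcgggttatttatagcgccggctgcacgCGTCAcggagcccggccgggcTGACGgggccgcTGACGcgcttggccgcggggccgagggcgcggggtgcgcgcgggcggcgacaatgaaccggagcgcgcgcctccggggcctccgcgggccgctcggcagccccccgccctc
Of the *Nr4a3* window the 98 bases outside exons, chr4:48045055-48045152 on the plus strand, hold 3 of its 4 CRE cores:
Nr4a3: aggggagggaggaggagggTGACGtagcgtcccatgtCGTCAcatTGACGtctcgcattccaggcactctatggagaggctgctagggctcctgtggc

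*Egr2* has 5 listed windows, of which 1 is shown because it holds both a CArG box and CRE cores. The window chr10:67537619-67537868 on the plus strand, inside the gene and outside its exons, holds a CArG box beginning 72 bases before the start and 2 CRE cores, and 2 further windows that overlap it hold the same sites:
Egr2: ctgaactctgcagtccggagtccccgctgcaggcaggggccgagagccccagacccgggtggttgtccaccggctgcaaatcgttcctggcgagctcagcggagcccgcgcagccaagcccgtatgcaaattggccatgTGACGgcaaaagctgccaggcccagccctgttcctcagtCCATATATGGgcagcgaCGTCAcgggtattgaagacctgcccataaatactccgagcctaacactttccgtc
A further window, chr10:67537316-67537565, holds a CArG box and no CRE core, and the window at the start of the gene, chr10:67535249-67535498, holds none of the motifs. At least 1 CRE core was found in 17.8% of 32851 RefSeq windows of the same length, and 4 or more in 0.137%, as in all 3 NR4A windows. A CArG box was found in 1.47% of windows and an EGR site in 3.06%. TATAAA, found in 12.4% of windows, occurred in that of *Nr4a2*. The NR4A site (1.34% of windows), the full CRE (1.55%) and the AP-1 site (6.75%) were in none of the 6 genes' windows, and the windows of *Ier3* and *Ier5* held none of these motifs. The 3 NR4A windows are rich in G and C, at 63.6% to 80.0% against a median of 52.4%. These matches describe letters, not binding.

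The 10 genes covered a wide range of levels. CPM was not divided by transcript length, since a 3′ end library yields 1 fragment per transcript. *Ier5* was the highest (mean 558 CPM over 7 mice, rank 188 of all 25033 gene symbols), followed by *Egr1* (510), *Ier2* (380), *Ier3* (306), *Nr4a1* (94.4), *Nr4a2* (68.7), *Phlda1* (18.8), *Egr2* (5.61), *Egr3* (4.93) and *Nr4a3* (2.09 CPM, rank 11149). Neighbors in this order were separated in both genotypes at 2 places, between *Ier3* and *Nr4a1* and between *Nr4a2* and *Phlda1*. In the wild type mice all other neighbors overlapped.

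Of the NR4A receptors, *Nr4a2* separated the genotypes, and *Nr4a1* and *Nr4a3* did not. *Nr4a2* (chr2:57106830-57124003) lay at 67.6, 39.5 and 26.04 CPM in WT1 to WT3 and at 72.7, 88.7, 102 and 84.5 CPM in KO1 to KO4. All 4 knockouts were above all 3 wild types, WT1 falling just short of the lowest knockout. The mean was 44.4 ± 21.2 CPM in wild type (SD, n = 3) and 87.0 ± 12.2 CPM in knockout (n = 4), a fitted log2 fold change of 0.96 ± 0.25 (SE). Without WT1 it was 1.42 ± 0.22, without WT3 it was 0.70, and without KO3 and KO4 it was 0.86 ± 0.30.

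*Nr4a1* (chr15:101254269-101274795), the best expressed NR4A gene, overlapped between genotypes. Its levels were 105, 77.0 and 61.1 CPM in WT1 to WT3 and 101, 70.7, 112 and 133 CPM in the knockouts, with a log2 fold change of 0.36 ± 0.21. Only KO3 and KO4 were above every wild type, and without these mice the log2 fold change was 0.09 ± 0.23. Without WT3 it was 0.19, and without WT1 0.60 ± 0.23. *Nr4a3* (chr4:48045153-48086447) rested on 5 to 16 reads per library, or 2.41, 1.40 and 1.59 CPM in wild type and 1.17, 2.08, 2.99 and 2.99 CPM in knockout. The log2 fold change of *Nr4a3* was 0.33 ± 0.62, within its error. It was 0.61 ± 0.81 without WT1, 0.19 without WT2 and 0.55 without KO1, and without KO3 or KO4 the gene had too few reads to be tested.

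The shares within the family differed with *Nr4a2*. The NR4A sum was 127 ± 43.9 CPM in wild type and 194 ± 29.8 CPM in knockout. *Nr4a1* made up 64.7% ± 4.45 of NR4A reads in wild type and 53.4% ± 7.40 in knockout, and *Nr4a2* 33.8% ± 4.64 and 45.4% ± 7.30. The ranges overlapped at their edges, since *Nr4a2* held 38.6% in WT1 and 38.3% in KO4. KO2 was the only mouse with more *Nr4a2* than *Nr4a1* reads, at a ratio of 1.26.

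The EGR genes showed no separation of the genotypes. *Egr1*, the EGR gene that carried 97.6% to 98.3% of EGR reads in each mouse, lay at 672, 452 and 256 CPM in the wild types and 437, 525, 618 and 612 CPM in the knockouts. WT1 exceeded all 4 knockouts, and the log2 fold change was 0.25 ± 0.29. It was 0.06 ± 0.35 without KO3 and KO4, 0.64 ± 0.22 without WT1 and -0.04 without WT3, so that 1 wild type mouse decided its direction.

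*Egr2* (chr10:67535475-67542188), a regulator of myeloid and lymphoid differentiation, was the only one of the 10 with a lower fitted level in knockout, at -0.29 ± 0.47. It lay at 8.78, 7.28 and 2.66 CPM in wild type and 2.33, 6.03, 5.98 and 6.23 CPM in knockout. KO1 was low and the other 3 knockouts lay between the wild types, and the value was 0.05 ± 0.57 without WT1, -0.04 without KO1, -0.65 without WT3 and -0.59 ± 0.61 without KO3 and KO4. *Egr3* (chr14:70077203-70082614) lay at 6.58, 3.64 and 2.39 CPM and 5.05, 4.16, 7.47 and 5.23 CPM, with a log2 fold change of 0.37 ± 0.46, and 0.87 ± 0.55 without WT1, 0.18 without KO3, 0.09 without WT3 and 0.12 ± 0.59 without KO3 and KO4. *Egr2* and *Egr3* rested on 9 to 40 reads per library, and their differences over all 7 mice were smaller than their standard errors.

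*Ier5* and *Phlda1* separated the genotypes, whereas *Ier2* and *Ier3* did not. *Ier5* (chr1:155096361-155099636), a cofactor of the heat shock factor HSF1, lay at 554, 483 and 392 CPM in WT1 to WT3 and at 605, 586, 583 and 702 CPM in the knockouts. Every knockout was above every wild type, at a log2 fold change of 0.38 ± 0.14, and 0.32 ± 0.17 without KO3 and KO4. *Phlda1* (chr10:111506286-111508645), a pleckstrin homology domain gene linked to cell death and to damping of receptor signaling, lay at 17.1, 11.5 and 7.44 CPM and at 19.6, 19.9, 31.6 and 24.4 CPM, on 28 to 169 reads. It overlaps the antisense *Gm28592*, and the strand setting of the counting is not given in the sources used here. Its log2 fold change was 0.98 ± 0.29, and 0.71 ± 0.34 without KO3 and KO4.

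*Ier3* (chr17:35821684-35822923), a gene linked to survival under stress, lay at 306, 255 and 184 CPM in wild type and 364, 242, 391 and 398 CPM in knockout. In *Ier3*, 3 knockouts were above every wild type and KO2 was below WT1 and WT2, at a log2 fold change of 0.49 ± 0.19. It was 0.29 ± 0.21 without KO3 and KO4 and 0.31 without WT3. *Ier2* (chr8:84661331-84662852), a nuclear regulator of transcription, lay at 393, 404 and 213 CPM and 320, 353, 377 and 602 CPM. Only KO4 exceeded WT1 and WT2, and the log2 fold change of 0.29 ± 0.27 was 0.06 ± 0.20 without KO4, 0.05 without WT3, 0.45 without WT2, 0.43 ± 0.30 without WT1 and 0.0011 ± 0.23 without KO3 and KO4.

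**Figure D1:**
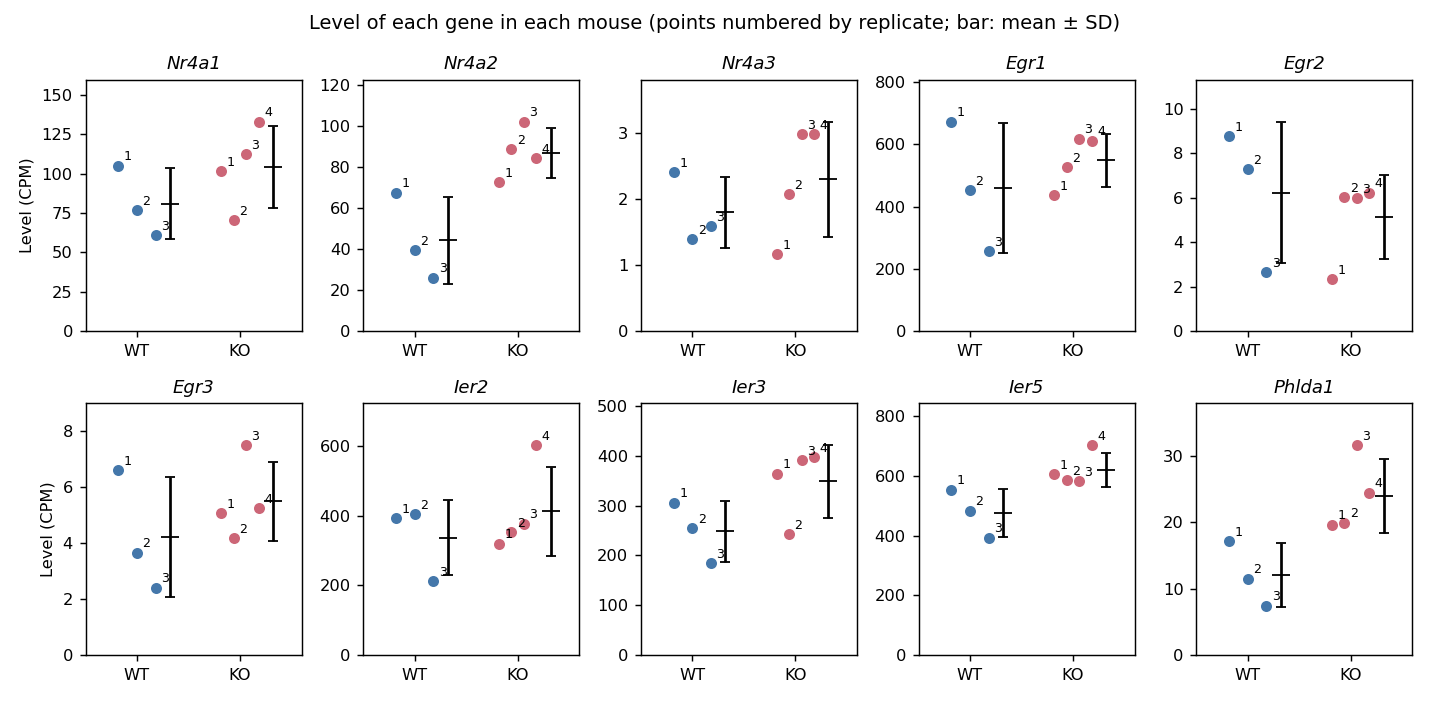
CPM (y axis, linear, from 0) of each of the 10 genes in each mouse, with wild type and knockout mice as points and bars for the mean and SD (n = 3 and n = 4). All 4 knockouts lie above all 3 wild types for *Nr4a2*, *Ier5* and *Phlda1*, and the genotypes overlap for the other 7 genes.

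Counted together, 9 of the 10 genes had a higher fitted level in knockout, where 49.8% of all genes tested did, and the median log2 fold change was 0.36 (range -0.29 to 0.98) beside -0.0014 over all genes. For 3 of 10, all knockouts were above all wild types, as for 2.37% of all genes. With library totals alone as the scaling, KO3 lay below WT1 for *Ier5*, which left 2. Without KO3 and KO4, 8 of the 9 genes tested were higher, at a median of 0.12. The median was 0.62 without WT1 and 0.22 without WT3. None of the 10 passed an adjusted p of 0.25, the study's threshold, in the edgeR test, where 0.00888% of genes tested passed as higher in knockout and 0.0178% in either direction. By unadjusted p under 0.05 there were 4 of them (*Nr4a2*, *Phlda1*, *Ier5* and *Ier3*), all higher in knockout, where 1.56% of genes tested had such a p and were higher, 2.07% were lower and 3.63% went either way. DESeq2, in which 0.194% of 10823 genes passed, put *Nr4a2* past the threshold, and edgeR with no filter on low counts, in which 0.25% of 16378 genes passed, put *Nr4a2* and *Phlda1* past it. Because the genes were selected on this contrast, these counts are not evidence about them.

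**Figure D2:**
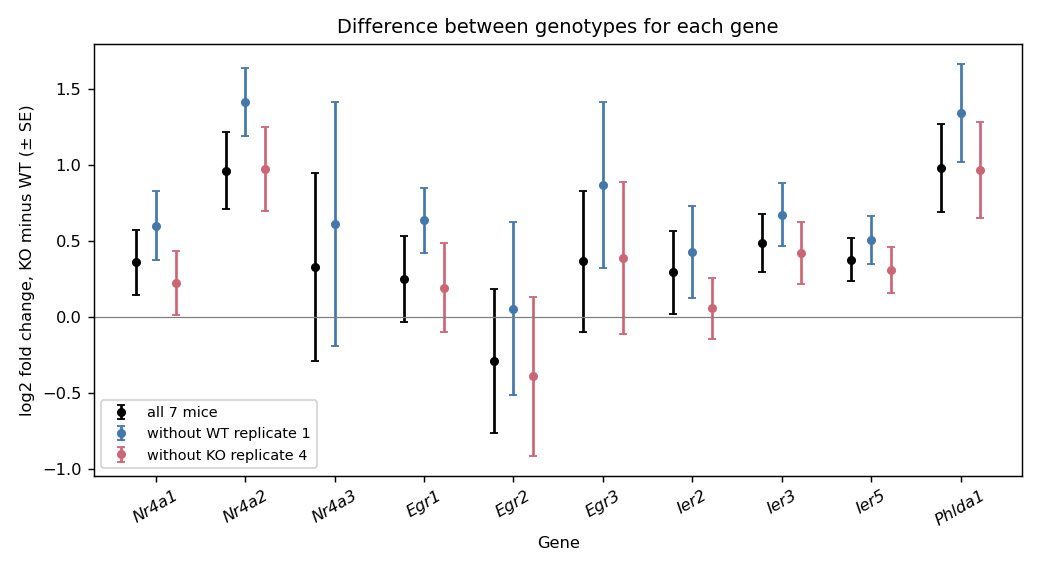
Fitted log2 fold change, knockout over wild type (y axis, bars for the SE), of each of the 10 genes (x axis) over all 7 mice in black, without WT1 in blue and without KO4 in red, where *Nr4a3* had too few reads to be tested without KO4. Over all 7 mice *Egr2* lies below 0 at -0.29 and the other 9 genes above it, *Nr4a2* and *Phlda1* furthest at 0.96 and 0.98.

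Within each genotype most of the 10 genes varied more between mice than the median gene. The SD of log2(CPM + 1) about the genotype mean was 0.43 in the median (0.19 for *Ier5* to 0.64 for *Egr2*) beside 0.28 over all genes tested, and 9 of 10 were above that value, *Ier5* being below. The fitted biological coefficient of variation differed less, at a median of 24.7% beside 20.2%, with 7 of 10 above. Among genes with a mean of 20 CPM or more, where counting error is small, 6 of the 10 had a median of 0.42 beside 0.22 over 6665 genes. The genes also deviated in the same mice. WT1 was the highest wild type for 9 of 10 genes (29.4% of all genes tested), the exception being *Ier2*, and WT3 the lowest for 9 of 10 (33.5%), the exception being *Nr4a3*. WT3 was the lowest of all 7 mice for 8 of 10 (15.6%). Among the knockouts, KO3 or KO4 was the highest for 10 of 10 (52.0%) and KO1 or KO2 the lowest for 9 of 10 (50.1%).

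The mean deviation of the 10 genes was 0.46, 0.04 and -0.51 in WT1 to WT3 and -0.25, -0.16, 0.20 and 0.22 in KO1 to KO4. The range within wild type was thus wider than the median genotype difference. Within each genotype, the mice ranked in the same order by the share of reads that fell on no gene, which was 30.3%, 29.8% and 27.6% in WT1 to WT3 and 27.0%, 29.7%, 31.2% and 31.6% in KO1 to KO4. The share of the ribosomal precursor *Rn45s* followed this order in the knockouts (4.94%, 9.21%, 13.6% and 18.6%) and not in the wild types (11.8%, 20.6% and 9.43%). The part of these library measures in the result was not tested.

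**Figure D3:**
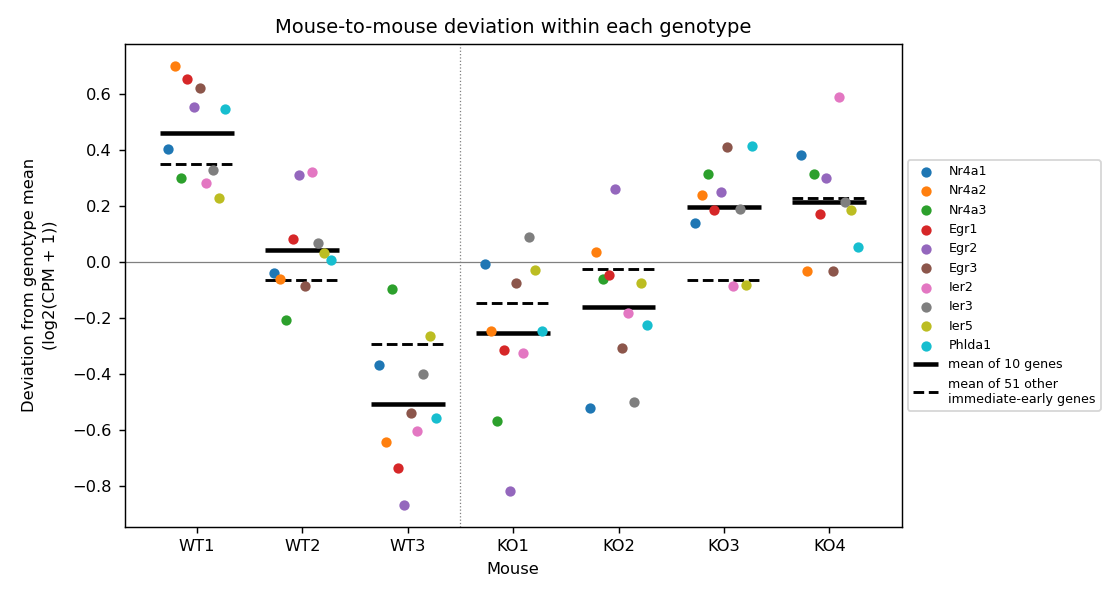
Deviation of each gene from its genotype mean in log2(CPM + 1) (y axis) in each mouse (x axis), with the mean of the 10 genes as a solid bar and that of 51 other immediate-early genes as a dashed bar. WT1 lies highest (mean 0.46) and WT3 lowest (mean -0.51).

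**Figure D4:**
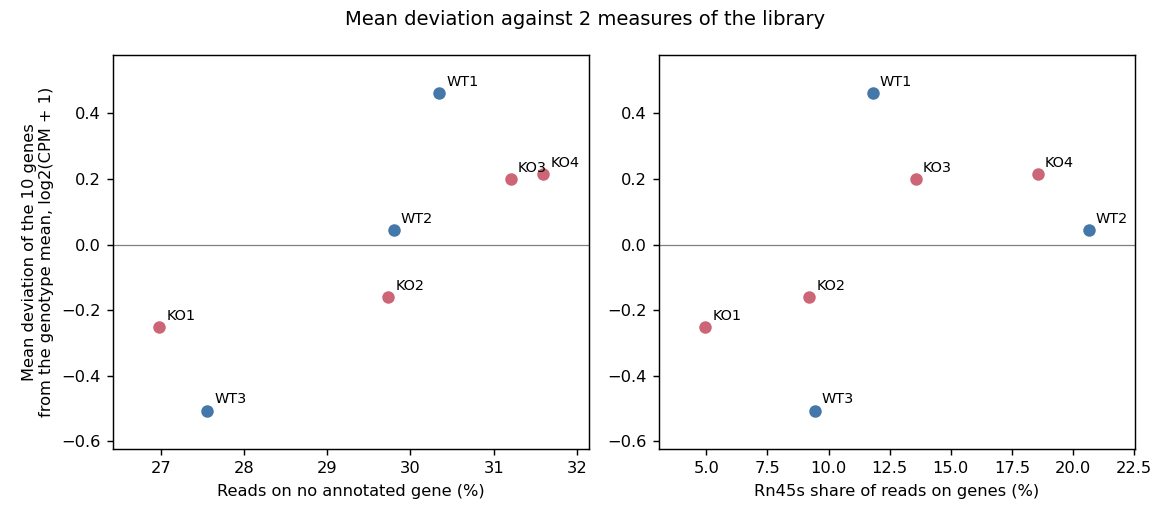
Mean deviation of the 10 genes (y axis, log2(CPM + 1)) against the share of reads on no gene and against the share of *Rn45s* (x axes, percent), 1 point per mouse. Within each genotype the mean is higher where the share of reads on no gene is higher, from 27.6% in WT3 to 30.3% in WT1 and from 27.0% in KO1 to 31.6% in KO4.

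The summed markers of resident macrophages, monocytes, and eosinophils, basophils and mast cells did not overlap between the genotypes, and those of the other cell types did. How often sums of other genes lie apart was not counted. *Ly6c2* made up most of the monocyte sum and itself overlapped (1179 to 1302 CPM in wild type and 1280 to 1965 CPM in knockout). The 11 neutrophil markers were all higher in knockout in the fit, with summed levels of 8023 to 11169 CPM in wild type and 9105 to 25310 CPM in knockout. The 10 resident macrophage markers, among them the complement gene *C1qc*, were lower for 9 of 10, at sums of 383 to 445 CPM against 276 to 320 CPM without overlap. The 8 eosinophil, basophil and mast cell markers tested were all lower (4231 to 4665 against 2883 to 3930 CPM), and 6 of 7 monocyte markers were higher (2214 to 2239 against 2372 to 3188 CPM). None of these markers passed an adjusted p of 0.25 in edgeR, with 7 macrophage, 4 eosinophil, basophil and mast cell and 2 monocyte markers and 0 neutrophil markers at an unadjusted p under 0.05 (in all genes tested 2.07% were so lower and 1.56% higher). DESeq2 passed 1 marker, *C1qc*, where 0.194% of all genes passed. Of 10 stem and progenitor markers, 8 were lower, with sums of 1493 to 1732 and 1432 to 1605 CPM. B cell (74.2 to 197 and 95.9 to 315 CPM), T and NK cell (391 to 446 and 240 to 441 CPM) and erythroid sums (36.0 to 105 and 24.5 to 120 CPM) overlapped, and 4 hemoglobin genes had 0 reads in every library. Megakaryocyte markers (227 to 369 and 104 to 890 CPM) and endothelial and stromal markers (213 to 262 and 228 to 1045 CPM) were highest in KO4. The part of any of these cells in the levels of the 10 genes was not tested.

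**Figure D5:**
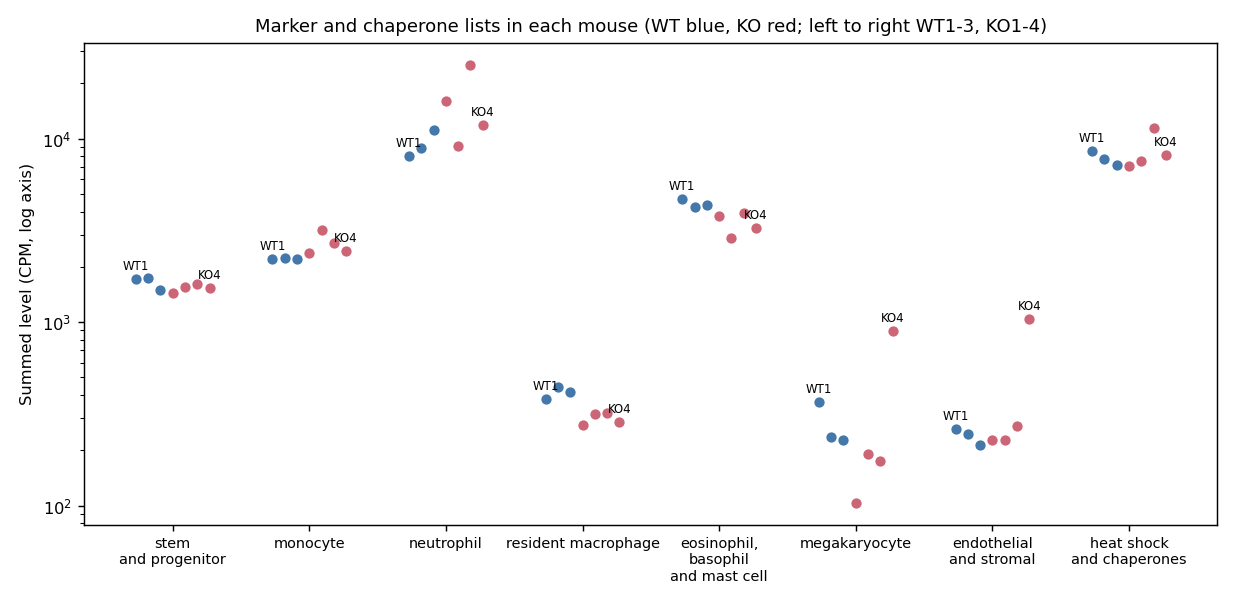
Summed CPM (y axis, logarithmic) of 7 cell type marker lists and the heat shock and chaperone list (x axis), 1 point per mouse, wild type in blue and knockout in red. The resident macrophage sums do not overlap (383 to 445 CPM in wild type, 276 to 320 CPM in knockout), and KO4 stands apart for megakaryocyte (890 CPM) and stromal (1045 CPM) markers.

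Other immediate-early genes were counted in a list of 60, of which 51 were tested. In the fit 41 were higher and 10 lower in knockout, at a median log2 fold change of 0.26 beside -0.0014 over all genes, and 0 passed the edgeR test (6 at unadjusted p under 0.05, all higher, beside 1.56% of all genes tested), while DESeq2 passed 1, *Tnf* (0.194% of all genes). The nearest was *Tnf*, an inflammatory cytokine, at 9.21, 9.80 and 9.03 CPM in wild type and 20.02, 20.6, 21.3 and 21.4 CPM in knockout. Its genotypes were well separated, at a log2 fold change of 1.15 ± 0.24 (adjusted p = 0.364, edgeR), and it was the only gene of the 51 with every knockout above every wild type, a share near the 2.37% of all genes. *Trib1* (0.51 ± 0.16), a pseudokinase that restrains myeloid differentiation factors, and *Klf4* (0.70 ± 0.23), a factor of monocyte differentiation, came next by p. The median of this list was 0.096 to 0.54 with single mice left out, and its mean deviation by mouse was 0.35, -0.06 and -0.29 in WT1 to WT3 and -0.15, -0.02, -0.06 and 0.23 in KO1 to KO4. WT3 was the lowest of all 7 mice for 31 of the 51 genes (15.6% of all genes tested). The AP-1 gene *Fos* and the phosphatase gene *Dusp1*, chosen for mention after their values were seen, were among these. *Fos* lay at 1035, 620 and 421 CPM in wild type and 841, 1166, 835 and 1613 CPM in knockout, and *Dusp1* at 607, 437 and 164 CPM and 448, 461, 543 and 1066 CPM.

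The lists of genes known to act on these promoters and mRNAs were split between the directions, and the heat shock list was not. Of 26 tested kinases and factors upstream (MAP kinases, CREB, SRF and their cofactors), 14 were higher and 12 lower, at a median of 0.0018, and the smallest p values belonged to the cofactors *Mrtfb* (-0.25), *Crtc3* (-0.30) and *Crtc1* (-0.36). Of 8 partners and co-repressors, 2 were higher and 6 lower, with *Kdm1a* at -0.16 and *Hsf1* at -0.17. Of 12 genes of AU-rich mRNA decay, 6 were higher and 6 lower, with *Dcp1a* at -0.61, *Xrn1* at -0.33 and *Zfp36*, which is also in the list of other immediate-early genes, at 0.25. All 13 tested heat shock and chaperone genes were higher in the fit, where 49.8% of all genes tested were. Their median was 0.16, with *Dnajb1* at 0.24, *Hspd1* at 0.22 and *Hspa8* at 0.15. The sums of this list overlapped, at 8588, 7733 and 7209 CPM in WT1 to WT3 and 7086, 7584, 11425 and 8144 CPM in KO1 to KO4. KO3 was the highest, and KO1 lay below every wild type. None of these genes passed an adjusted p of 0.25 in edgeR, and 1, *Dcp1a*, had an unadjusted p under 0.05 and was lower (2.07% of all genes tested), while DESeq2 passed none of the upstream, partner and decay genes.

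The genes whose mouse-to-mouse pattern was most like that of the 10 were sought over 7 mice among 9824 tested genes with a mean of at least 5 CPM, by the root mean square difference from the mean deviation of the 10 genes. The nearest were *Wbp1* (0.075), *Mtfmt* (0.088), *Mecr* (0.097), *Arfgef2* (0.107), *A230050P20Rik* (0.109), *Ring1* (0.109), *0610012G03Rik* (0.110) and *Abca7* (0.111), against a median of 0.374 over the candidates. None of these 8 belongs to the immediate-early lists. Of the 10 genes themselves, *Phlda1* (0.111) and *Egr1* (0.125) were nearest to their own mean and *Egr2* (0.320) furthest. *Wbp1*, the nearest, lay at 39.5, 24.1 and 18.6 CPM in wild type and 19.8, 20.8, 26.9 and 27.7 CPM in knockout, so that it shared the order of the mice and not a higher level in knockout. Of 8 other immediate-early genes measured in this way, named after their values were seen, *Junb* (0.141) was the nearest and *Atf3* (0.538) the furthest.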

How the data were processed

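RNA of lin- bone marrow cells was made into QuantSeq 3′ libraries, sequenced as single reads and aligned with STAR to GRCm38, and the authors deposited whole read counts per gene and mouse. The labels also name FastQC and DESeq2. The rows of each file that tally reads on no gene were kept out of totals and tests. CPM used totals scaled by TMM factors. The genotypes (3 wild type, 4 knockout) were compared with edgeR 4.0.16 in R 4.3.3 by the quasi-likelihood test (robust, filterByExpr, 11265 genes), with no covariate and Benjamini-Hochberg adjustment over all genes tested, at 0.25 as in the study with 0.05 beside it. This was tested on simulated data. DESeq2 1.42.0, other scalings and filters, a replicate block and leaving out mice were alternatives. Deviations used log2(CPM + 1).

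The 10 genes and all lists were chosen with earlier results of these data known. Genes named are the 10, the 3 of smallest p in each list of related genes (1 is not reported here), the 8 nearest in pattern, *Hdgfl2*, *Rn45s*, *Xist*, genes called under an alternative, and those said to be chosen or named after their values were seen. Of the marker lists only genes that a result turns on are named. These and *Ddx3y* (library checks) were chosen after their values were seen. All pairs of libraries in a genotype differed beyond sampling noise. Positions are those of GENCODE on GRCm38, and promoter sequences are RefSeq's for GRCm38.p6.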

Additional observations from a re-analysis of the deposited data

Results flagged for a closer look

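Among groups of 4 knockout mice, 55 results were examined for a mouse far from the others, and 4 were found, where chance gives about 2.75 (1 in 20). *Egr2* lay at 2.33 CPM in KO1, against 5.98 to 6.23 CPM in the other knockouts, on 12 reads. The summed megakaryocyte markers lay at 890.2 CPM in KO4, against 104 to 190 CPM in the others. The summed endothelial and stromal markers lay at 1045 CPM in KO4, against 228 to 270 CPM, mostly from *Col1a1* (518 CPM) and *Col1a2* (302 CPM). The chaperone gene *Hspd1* lay at 155 CPM in KO3, against 109 to 115 CPM in the others. Groups of 3 were not examined.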

How the results depend on the processing

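Past an adjusted p of 0.25, edgeR called 2 genes, DESeq2 21, edgeR with no filter 41, with at least 10 counts in every mouse 1, and 2 to 7 with single mice left out (7 without WT1, 4 without KO1). Past 0.05 these counts were 2, 6, 19, 1 and 1 to 5. Of the 10 genes, DESeq2 called 1 (*Nr4a2*), no filter 2 (*Nr4a2* and *Phlda1*), and single mice left out 0 to 1 (*Nr4a2* without WT1). Of the other immediate-early genes, DESeq2 called 1 (*Tnf*), no filter 2 (*Klf4* and *Tnf*), and single mice left out 0 to 1 (*Cxcl2* without WT1). With a replicate block the counts past 0.25 and past 0.05 were each 1 and no listed gene was called. Same-numbered mice did not deviate together (correlations -0.02, -0.21 and -0.16 across genes). Larger differences between single libraries can hide a pairing, so these values cannot exclude that the numbers pair the mice.

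The median log2 fold change of the 10 genes was 0.12 to 0.62 over all alternatives. With single mice left out the medians were 0.096 to 0.54 for the other immediate-early genes, -0.0701 to 0.0287 for upstream genes and -0.0653 to 0.0092 for mRNA decay, the last at -0.0906 without KO3 and KO4, an alternative added after seeing the data. Scalings moved the median of all genes by 0.0086 at most. *Nr4a3* failed the filter in some alternatives, and with at least 10 counts *Egr3* also was not tested. *Nr4a3*, *Egr2* and *Egr3* rest on few reads. The cause of these changes was not tested.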
